A study of Mus musculus with 3 samples.

Results

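Beta cells, which make insulin, were compared with gamma cells, which make pancreatic polypeptide, within the islets of Langerhans of the same 3 mice. The mice were non-diabetic female NOD-SCID animals aged 10 to 11 weeks, a strain that lacks mature T and B cells, and each gave 1 droplet library of transcript 3′ ends. The labels of these libraries name no treatment or injury, so mice 1, 2 and 3 form 1 group and the comparison lies between cells of the same animal. A cell was kept with at least 1000 genes and at most 15% of its unique molecular identifiers (UMIs, 1 per captured transcript) from mitochondrial genes. It was counted as a beta cell when Ins1 and Ins2 gave at least 30% of its UMIs and Gcg, Sst and Ppy less than 3% each. It was counted as a gamma cell when Ppy gave at least 10% of its UMIs and Ins1 with Ins2, and Sst, less than 5% each. By this rule 1079 of 5342 kept cells and of 16162 deposited barcodes were members. Of these, 855 were beta cells (96, 415 and 344 in mice 1, 2 and 3) and 224 were gamma cells (19, 9 and 196).

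Both cell types store peptide hormones in dense granules. Beta cells take up glucose through a low-affinity transporter, metabolise it, close ATP-sensitive potassium channels and release insulin when calcium enters. Gamma cells, also called PP cells, are the rarest of the main endocrine cells of the islet and lie mostly in the ventral, duodenal part of the pancreas. Pancreatic polypeptide belongs with peptide YY and neuropeptide Y to the PP-fold family, which act on a shared family of receptors. In development, Pdx1, Nkx6-1 and Mafa mark the beta lineage.

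Depth was uneven between mice. The libraries held 32389170, 48076507 and 57849496 UMIs. Beta cells had median depths of 64076.5, 31853 and 34399.5 UMIs per cell, and gamma cells 49331, 29656 and 23501. Without the 5 hormone genes Ins1, Ins2, Gcg, Sst and Ppy, the summed UMIs were 1991630, 6507822 and 4358925 for beta cells and 555674, 147289 and 2871872 for gamma cells. The gamma sum of mouse 2 thus rests on 9 cells, and mouse 3 gave 196 of the 224 gamma cells. Mice 1 and 2 shared 148 barcodes, of which 1 was a member in both libraries, against 9 and 13 shared barcodes in the other pairs with no member in both. The p-values cover the spread of the beta and gamma difference over the 3 mice, for most genes as a spread shared across genes. They do not cover the error of choosing the cells.

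The cells were chosen by their shares of Ins1, Ins2, Gcg, Sst and Ppy, so these values are a description. Insulin transcripts gave 65.3%, 67.8% and 64.0% of all beta-cell UMIs in mice 1, 2 and 3, and 0.878%, 0.958% and 0.391% of all gamma-cell UMIs. Ppy, at chr11:102099930-102101319 on GRCm38, gave 36.3%, 39.0% and 32.0% of gamma-cell UMIs and 0.00748%, 0.00432% and 0.0314% of beta-cell UMIs. Insulin thus took the larger part of the RNA of beta cells, and Ppy a smaller but still leading part of the RNA of gamma cells. Single gamma cells ranged from 10.9% to 53.9% Ppy. Just inside the thresholds lay gamma cells at 10.9%, 11.6% and 11.9% Ppy and beta cells at 30.01%, 30.3% and 30.4% insulin. Just outside lay cells at 9.71%, 9.47% and 9.47% Ppy and at 29.9%, 29.8% and 29.8% insulin.

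**Figure D1:**
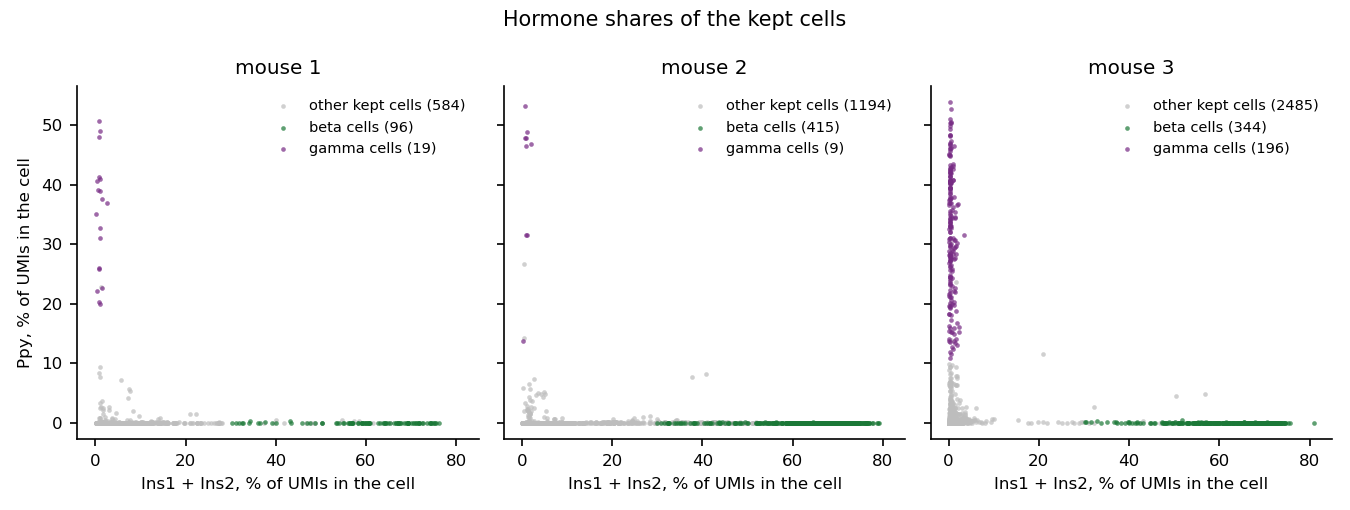
Each point is 1 kept cell, with the Ins1 and Ins2 share of its UMIs on the x axis and the Ppy share on the y axis, in 1 panel per mouse. The 855 beta cells lie along the x axis, the 224 gamma cells along the y axis, and mouse 2 has 9 gamma cells.

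All gamma cells held some glucagon transcripts, at a lowest share of 0.0190%, 0.0458% and 0.0913% in mice 1, 2 and 3, and some held far more. Gcg gave 2.51%, 6.91% and 5.34% of the gamma-cell UMIs, but the median gamma cell held 0.135%, 0.0679% and 0.252%. The share came from a minority: 5 of 19, 1 of 9 and 44 of 196 gamma cells had at least 3% Gcg (95% exact binomial intervals 9.15% to 51.2%, 0.281% to 48.2% and 16.8% to 28.9%, for counting error only). The rule for gamma cells set no limit on Gcg, and for the named genes whose call ended or whose size moved most without these cells, the values are given beside the gene.

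Genes other than the hormones were tested on UMIs summed per mouse and cell type, with edgeR's quasi-likelihood test and the mouse as a block. Levels are given as CPM, the counts of a gene scaled to a fixed total of UMIs per sum without the 5 hormones and adjusted by TMM factors, and log2 differences are beta minus gamma. Of 10489 genes tested, 1606 (15.3%) were higher in beta cells and 1554 (14.8%) were higher in gamma cells at a false discovery rate of 0.05, or 30.1% in either direction. Differences of 2-fold or more were found for 882 and 743 of them, and the median log2 difference of all genes was 0.0080. A shared spread across genes was used for 94.6% of the genes, since 3 mice leave 2 residual degrees of freedom. Very small adjusted p-values rest on that shared spread, so sizes and single values are given here in place of most p-values. DESeq2 called 794 and 743 genes. Counts within the gene lists below are to be read against the 15.3% and 14.8% of all genes.

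**Figure D2:**
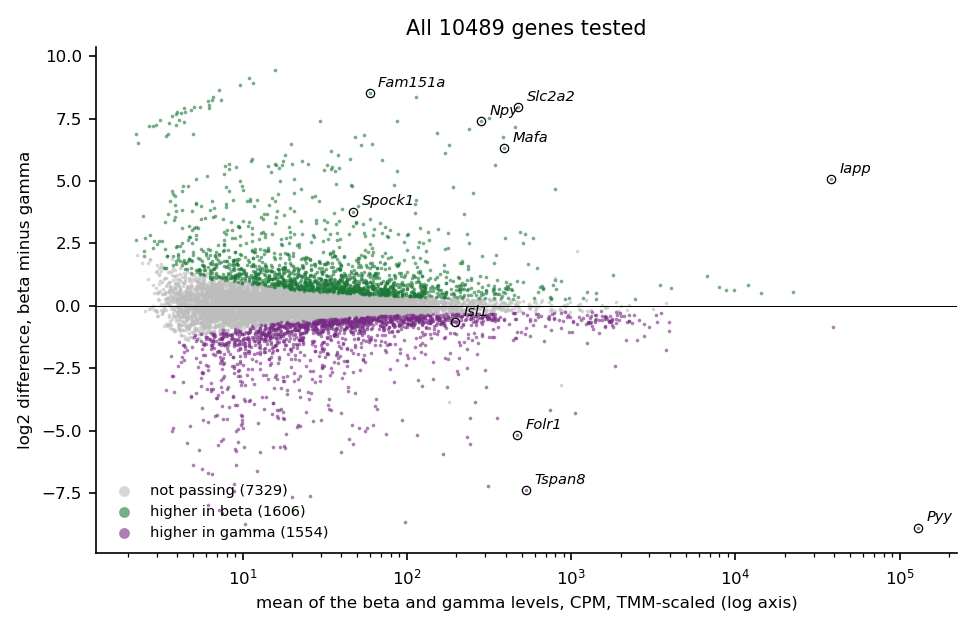
Each point is 1 of the 10489 genes tested, with the mean of the beta and gamma levels in CPM (log axis) against the log2 difference, beta minus gamma. Green points (1606) were higher in beta cells, purple points (1554) higher in gamma cells, and Pyy and Iapp lie far to the right of the other labelled genes.

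The beta cell was set apart by the genes that carry glucose in and report on it. Slc2a2 (chr3:28697903-28731359), the glucose transporter GLUT2, stood at 955, 944 and 947 CPM in beta cells of mice 1, 2 and 3 and at 8.45, 0 and 3.05 CPM in gamma cells. The 3 beta values lay close together and far above every gamma value, a fitted 248-fold difference (log2 7.95 ± 0.21 SE). G6pc2, the islet glucose-6-phosphatase, stood at 931, 904 and 843 CPM against 14.8, 22.2 and 3.05 CPM, or 143-fold. Trpm5, a calcium-activated cation channel, stood at 247, 295 and 368 CPM against 4.22, 0 and 2.67 CPM, or 122-fold. In all these genes, which were chosen for large differences, the highest gamma value was far below the lowest beta value.

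The other leading beta genes included 2 peptides and a hormone receptor. Ucn3 (chr13:3940688-3945349), the peptide urocortin 3 of mature beta cells that acts on delta cells, stood at 445, 420.2 and 563 CPM against 2.11, 0 and 4.57 CPM, or 134-fold. Npy, neuropeptide Y, stood at 479, 588 and 617 CPM against 6.33, 7.40 and 2.67 CPM, or 168-fold. Prlr, the prolactin receptor, stood at 651, 972 and 680.1 CPM against 8.45, 7.40 and 5.72 CPM, or 109-fold. So 1 member of the PP-fold family, Npy, was a beta-cell gene in these mice. Prss53, a serine protease, stood at 612, 613 and 666 CPM against 10.6, 0 and 2.29 CPM (184-fold), and Pcx, pyruvate carboxylase, at a mean of 53.3 against 1.59 CPM (log2 4.40), the latter named after its values were seen.

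For 5 of the 12 leading beta genes, gamma cells held only 1 to 3 UMIs in all, so their ratios carry a wide counting interval. Fam151a had 1671 UMIs in beta cells and 1 in gamma cells, a ratio of 380.5 after scaling to the UMIs of each sum (95% counting interval 68.2 to 15037). Tmem215 had 3277 against 2 UMIs, a ratio of 373 (103 to 3082). Car10, a carbonic anhydrase-related protein, had 885 against 1 UMI, a ratio of 202 (36.1 to 7968). Angptl7, a secreted angiopoietin-like protein, had 1649 against 3 UMIs (125, 42.8 to 608), and Cntfr, a receptor for ciliary neurotrophic factor, 1349 against 3 UMIs (102, 35 to 497). The other leading beta genes had 9 to 20 UMIs in gamma cells, so the size of their folds rests on few molecules.

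**Figure D3:**
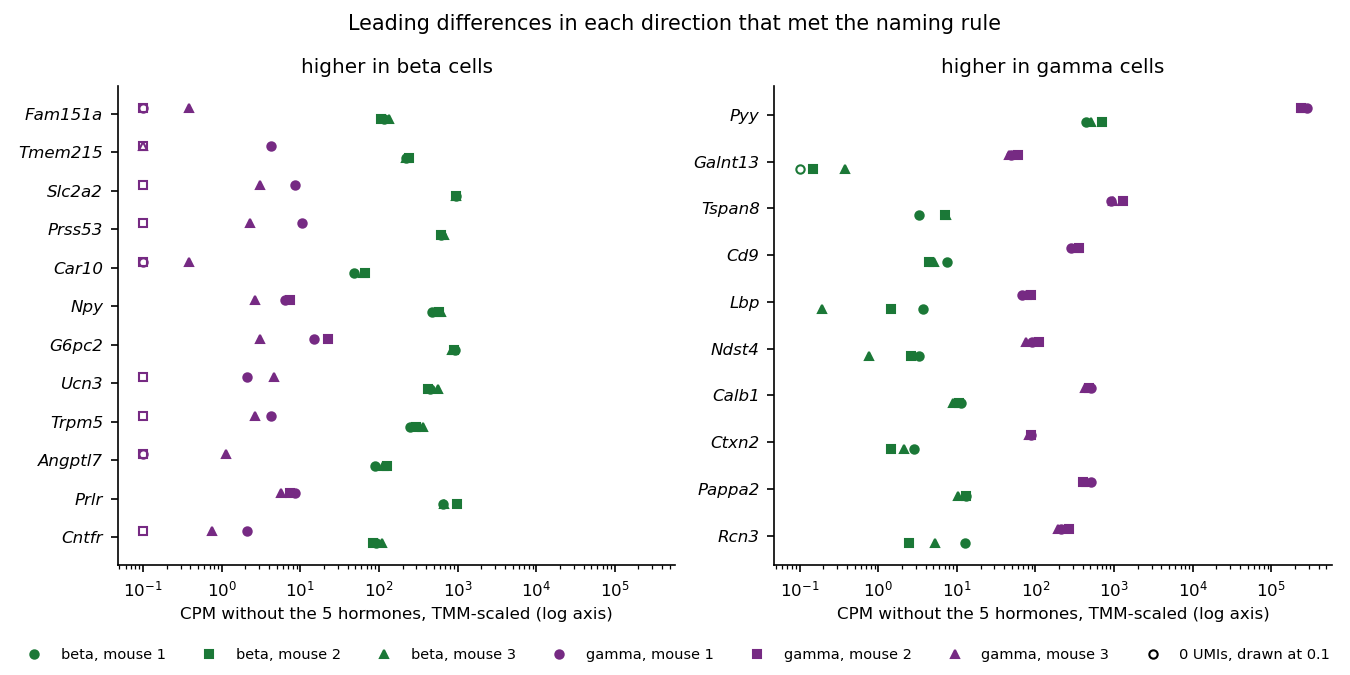
Levels in CPM (log axis, TMM-scaled) of the 12 leading beta genes and 10 leading gamma genes, with green for beta and purple for gamma cells, a marker shape for each mouse and open symbols for 0 UMIs. The genes were chosen for large differences in the same direction in all 3 mice, so the gap between beta and gamma points follows largely from that choice.

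Free RNA, which reaches droplets from broken cells, was gauged from barcodes with fewer than 500 genes, with no limit on their UMIs. These held 24.0%, 13.5% and 11.6% insulin in mice 1, 2 and 3, and the insulin in gamma cells equals that of free RNA at 3.66%, 7.09% and 3.37% of their UMIs. Cells were also thinned to 5000 UMIs each, counted without the 5 hormone genes. So thinned, Slc2a2 was detected in 95.4% of beta cells and 2.17% of gamma cells (means over mice), and in 4.31% of alpha and 5.02% of delta cells. Unthinned, those shares were 97.1% and 8.38% for beta and gamma cells. The gamma share lay below those of alpha and delta cells and is not read as expression. Shallower cells left out of the thinned shares were 12, 132 and 24 beta cells and 0, 0 and 35 gamma cells.

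Gamma cells had their own leading set, headed by a hormone relative. Pyy (chr11:102106676-102107832) encodes peptide YY, a PP-fold peptide known from the gut. It took 14.5%, 11.4% and 14.6% of all gamma-cell UMIs (13.5% ± 1.77, SD, n = 3) and 0.0206% ± 0.00374 of beta-cell UMIs. Without the hormone genes it stood at 281343, 235488 and 256537 CPM in gamma cells and at 442, 695 and 515 CPM in beta cells, or 474-fold. The gamma values exceeded alpha cells (mean 11091 CPM, log2 4.60) and delta cells (22527 CPM, log2 3.57) as well. Pyy was thus, beside Ppy, a main transcript of the gamma cell.

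Pyy and Ppy are neighbours on the minus strand of chromosome 11, with start sites 6513 bases apart. Their upstream sequences are shown because both transcripts are abundant in the same cells, and those of Slc2a2 and Ucn3 because these genes mark the other side. Each is the 250 bases before the start site, 5′ to 3′ on the gene's strand, from RefSeq on GRCm38.p6, at chr11:102101320-102101569 (Ppy), chr11:102107833-102108082 (Pyy), chr3:28697653-28697902 (Slc2a2) and chr13:3945350-3945599 (Ucn3). Capitals mark matches on either strand to TGCTGA, the core of an element bound by Mafa, to CATCTG, an E-box, or to TAATTA, a homeodomain core.
Ppy: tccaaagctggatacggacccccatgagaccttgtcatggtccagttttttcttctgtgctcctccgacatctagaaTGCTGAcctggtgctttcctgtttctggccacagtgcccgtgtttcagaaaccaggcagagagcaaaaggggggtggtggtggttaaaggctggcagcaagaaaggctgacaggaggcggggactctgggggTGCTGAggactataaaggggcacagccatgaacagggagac
Pyy: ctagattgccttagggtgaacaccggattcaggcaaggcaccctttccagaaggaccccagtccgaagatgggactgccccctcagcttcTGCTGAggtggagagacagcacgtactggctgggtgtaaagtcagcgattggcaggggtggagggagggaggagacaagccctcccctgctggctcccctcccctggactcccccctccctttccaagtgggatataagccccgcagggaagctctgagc
Slc2a2: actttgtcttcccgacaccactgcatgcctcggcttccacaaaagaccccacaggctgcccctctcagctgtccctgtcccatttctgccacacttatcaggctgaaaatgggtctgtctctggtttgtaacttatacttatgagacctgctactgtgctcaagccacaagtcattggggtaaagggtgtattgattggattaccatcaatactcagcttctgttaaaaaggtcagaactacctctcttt
Ucn3: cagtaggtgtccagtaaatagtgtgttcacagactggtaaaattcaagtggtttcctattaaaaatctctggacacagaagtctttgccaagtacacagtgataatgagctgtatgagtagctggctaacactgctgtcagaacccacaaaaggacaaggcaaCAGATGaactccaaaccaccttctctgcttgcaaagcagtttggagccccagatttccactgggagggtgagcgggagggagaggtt
Ppy held TGCTGA 173 and 41 bases before its start, and Pyy held it 160 bases before its start. Ucn3 held CATCTG on the opposite strand 87 bases before its start, and Slc2a2 held none of these motifs. Over all 32851 windows of this length, 16.1% held TGCTGA, 14.4% CATCTG and 4.84% TAATTA. Of the 12 leading beta genes, all with a window, 1, 3 and 1 held these motifs, and of the 7 leading gamma genes with a window, 2, 0 and 0. No site was measured in these data, and the matches are a description.

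Among the other gamma genes were 2 tetraspanins. Tspan8 (chr10:115816832-115849893), a tetraspanin of the cell surface, stood at 904, 1296 and 959 CPM in gamma cells and at 3.28, 7.17 and 7.26 CPM in beta cells, or 167-fold. Cd9, another tetraspanin, stood at 283, 355 and 335 CPM against 7.50, 4.39 and 5.16 CPM, or 61.1-fold. All gamma values of these 2 genes, which were chosen for large differences, were far above all beta values. Thinned to 5000 non-hormone UMIs, Tspan8 was detected in 93.7% of gamma cells, 2.35% of beta cells, 6.49% of alpha cells and 47.5% of delta cells (unthinned 96.1% of gamma and 5.38% of beta cells). It was thus detected in nearly every gamma cell of the 3 mice (94.7%, 88.9% and 97.5%).

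The rest of the gamma set was of mixed kind. Calb1, the calcium buffer calbindin, stood at 513, 474 and 431 CPM against 11.2, 10.7 and 8.98 CPM, and Pappa2, a protease of IGF-binding proteins, at 505, 407 and 454 CPM against 13.1, 13.2 and 10.3 CPM. Rcn3, a calcium-binding protein of the endoplasmic reticulum, stood at 213, 267 and 194 CPM against 12.7, 2.49 and 5.35 CPM. Lower in level but as clearly apart were Lbp, which binds bacterial lipopolysaccharide (77.3 against 1.80 CPM), Ndst4, a heparan sulfate sulfotransferase (92.2 against 2.23 CPM), and Ctxn2 (86.5 against 2.13 CPM). Galnt13, which starts O-linked glycans, had 152 UMIs in gamma cells and 3 in beta cells, a ratio of 223 (74.7 to 1091).

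The leading beta genes stood at or below 25.3 CPM on average in alpha cells, while several leading gamma genes were abundant there. In 1 fit with alpha cells (1312, Gcg at least 30%) and delta cells (646, Sst at least 10%), where 7.86% and 8.65% of genes were higher in gamma and in alpha cells and 12.9% and 12.6% higher in gamma and in delta cells (16.5% and 25.5% in either direction), 0 of the 12 leading beta genes differed between gamma and alpha cells by edgeR (1 at an unadjusted p under 0.05, 0 by DESeq2). A missed threshold does not show equal levels. Against delta cells 3 of 12 were lower in gamma cells: Fam151a (0.132 against 19.3 CPM), Npy (5.60 against 88.6 CPM) and Cntfr (0.986 against 6.02 CPM). Of the 12 leading gamma genes, 12 were higher in gamma than in delta cells and 8 were higher than in alpha cells. Tspan8 stood at 1081 ± 209.7 CPM in gamma and 17.0 ± 1.99 CPM in alpha cells, Cd9 at 334 ± 38.5 against 50.4 ± 12.1 CPM, and Calb1 at 486 ± 38.4 against 113 ± 18.7 CPM (SD, n = 3). Ndst4 was lower in gamma cells (94.7 against 156 CPM), and Galnt13, Ctxn2 and Pappa2 did not pass (52.7 against 45.7, 88.9 against 115 and 468 against 501 CPM). These contrasts share the gamma cells with the main one.

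The peptide genes split by cell type. Of 5 tested of 19, 4 were higher in beta cells and 1, Pyy, in gamma cells. Iapp, the amyloid peptide released with insulin, stood at 77028, 84476 and 60642 CPM in beta cells and at 2857, 1199.6 and 2528 CPM in gamma cells (33.9-fold, edgeR adjusted p = 0.039). It took 2.85%, 2.84% and 2.61% of all beta-cell UMIs, and the groups did not overlap. Its call ended without mouse 1, with free RNA subtracted, without an expression filter and with gamma cells limited to Gcg below 3%, at log2 differences of 5.31, 5.72, 5.14 and 4.83. Nucb2, the precursor of nesfatin, stood at 302, 372 and 235 against 171, 141 and 143 CPM (log2 0.86).

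The list of beta-cell transcription factors, which also holds the noncoding RNA Plut, was mostly higher in beta cells. Of the 18 genes tested, 11 were higher in beta and 2 in gamma cells, with a median log2 difference of 1.32. Mafa, which drives insulin and maturity genes, stood at 894, 778 and 650.5 CPM against 21.1, 7.40 and 6.10 CPM (log2 6.31). Mnx1, a homeobox factor of early beta cells, had 297 UMIs in beta cells and 1 in gamma cells (ratio 67.6, 12 to 2680). Mlxipl, the glucose-responsive factor ChREBP, stood at 149, 127 and 152 against 23.2, 7.40 and 17.9 CPM (log2 3.03). All 3 were separate between the cell types in every mouse. Neurod1 (1.38), Insm1 (1.38), Rfx6 (1.56), Glis3 (1.27) and Pax6 (0.73), which serve endocrine cells more widely, differed by smaller log2 amounts. Glis3 did not pass without mouse 3 (log2 1.20). Plut, a noncoding RNA beside Pdx1 and 1 of the 11, was higher by 5.83. Reads of the 2 neighbours may not be separable, so Plut and Pdx1 may not be independent members of the 11.

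Pdx1 and Nkx6-1 were reduced in gamma cells and yet detectable. Pdx1, which sets beta identity, stood at 214, 203 and 225 CPM in beta cells and at 25.3, 29.6 and 25.2 CPM in gamma cells (log2 3.11 ± 0.18 SE). Nkx6-1, its partner, stood at 419, 389.6 and 418 against 63.3, 51.8 and 54.1 CPM (log2 2.88 ± 0.15 SE). Beta and gamma values did not overlap, and the gamma values varied little between mice. Alpha cells held less of both genes than gamma cells, with 3.96 CPM Pdx1 (log2 2.83 below gamma) and 12.8 CPM Nkx6-1 (2.19 below gamma). Delta cells held more Pdx1 (125 CPM) and less Nkx6-1 (7.59 CPM, 3.19 below gamma). At 5000 non-hormone UMIs per cell Nkx6-1 was detected in 85.8% of beta, 20.6% of gamma, 6.53% of alpha and 4.39% of delta cells, and unthinned in 90.3% of beta and 48.6% of gamma cells. The gamma share lay above that of alpha and delta cells.

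Isl1 and Nkx2-2, factors used by all islet endocrine cells, ran the other way. Isl1 stood at 159.8, 181 and 143 CPM in beta cells and at 239, 185 and 276 CPM in gamma cells (log2 -0.66). Nkx2-2 stood at 93.3, 87.6 and 101 against 160.5, 118 and 146 CPM (log2 -0.60). The groups were adjacent for Isl1 in mouse 2, and neither gene passed with DESeq2 or with cells thinned to 1000 non-hormone UMIs. Isl1 also did not pass without mouse 3 (log2 -0.40), nor Nkx2-2 without mouse 1 (log2 -0.50). Of the 5 tested factors that did not pass, Rfx3 had a log2 difference of -0.02, Foxa2 of 0.26, Foxo1 of 0.31 and Hnf4a of 0.79.

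Of 15 tested factors linked with the other endocrine cells, 8 were higher in gamma and 3 in beta cells, with a median log2 difference of -0.44. Etv1, an ETS-family factor, stood at 507, 392 and 489.8 CPM in gamma cells and at 22.0, 23.7 and 17.6 CPM in beta cells, and alpha cells reached 553 CPM. Irx2, an Iroquois factor of alpha cells, stood at 35.9, 44.4 and 42.7 against 2.34, 1.46 and 0.956 CPM, with 168 CPM in alpha cells. Irx1 stood at 21.1, 14.8 and 19.1 against 0, 0.586 and 0.382 CPM, with 184 CPM in alpha cells. In the sums, gamma cells thus held both Irx genes above the beta level and below the alpha level. That level differed among gamma cells: without TMM scaling, Irx2 stood at 56.4, 215 and 86.1 CPM in those with at least 3% Gcg and at 23.2, 8.06 and 21.5 CPM in the others. Irx1 stood at 48.4, 0 and 55.3 CPM in the first and at 9.27, 16.1 and 3.34 CPM in the second. For both genes the first group was 1 cell in mouse 2. With gamma cells limited to Gcg below 3%, Irx2 had a log2 difference of -3.96, in place of -4.87, and Irx1 was not tested. Fev stood at 59.1, 22.2 and 41.2 against 4.22, 0.878 and 4.97 CPM. Meis2, a TALE homeobox factor used as a gamma marker, was higher in gamma cells by a log2 of 0.44 (308, 267 and 269.9 against 218, 224 and 193 CPM). It did not pass with DESeq2, without mouse 1, without mouse 3, without the mouse as a block or with cells thinned to 1000 non-hormone UMIs. Peg3 (0.56), St18 (0.58) and Myt1l (0.41) were higher in beta cells, the last 2 not with DESeq2 or without the mouse as a block. St18 did not pass without mouse 3 either. Myt1l did not pass with gamma cells limited to Gcg below 3% (log2 0.35) or without mouse 1 or mouse 2 (0.33 and 0.26).

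**Figure D4:**
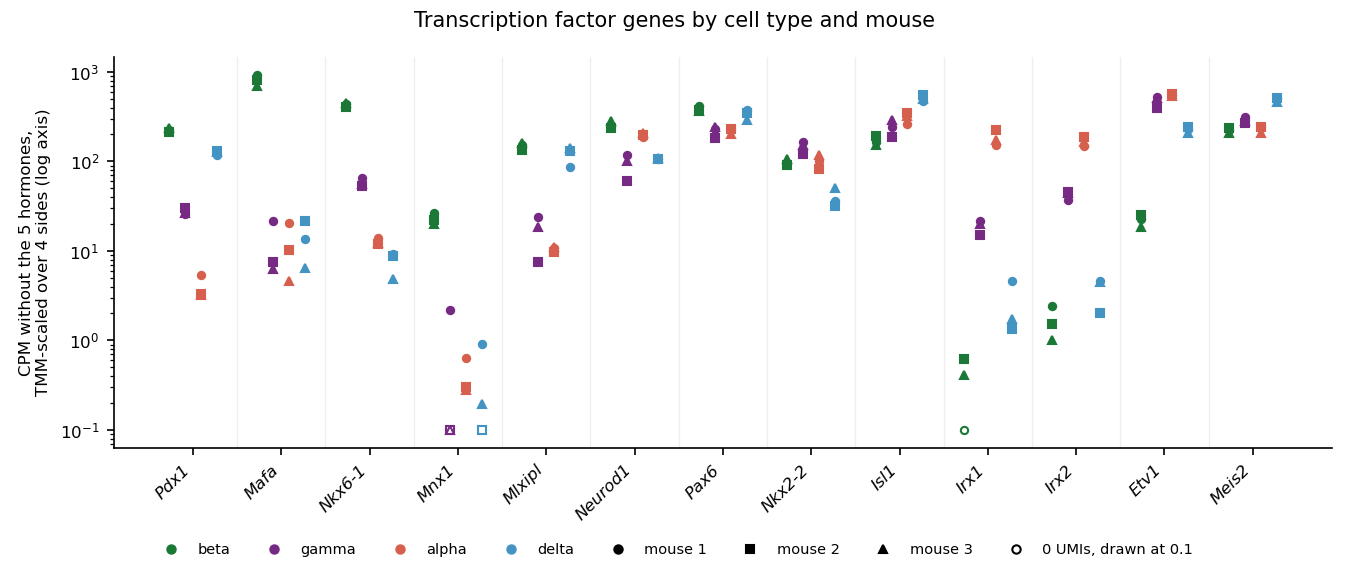
Levels of 13 transcription factor genes in CPM (log axis, TMM-scaled over the 4 cell types), coloured by cell type with a marker shape for each mouse. Gamma points lie between beta and alpha points for Pdx1 and Nkx6-1, and between them as well for Irx1 and Irx2, where alpha points are highest.

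Some genes differed in level between the gamma cells with at least 3% Gcg and those with less. Slc30a8, the zinc transporter of insulin granules, stood without TMM scaling at 540.1, 344 and 375 CPM in the gamma cells with at least 3% Gcg and at 83.4, 0 and 41.5 CPM in the others. With gamma cells limited to Gcg below 3%, its log2 difference from beta cells went from 2.52 to 4.00, and that of Ttr from -1.75 to -1.08. Ttr, transthyretin, which is abundant in alpha cells, stood at 9278, 10618 and 16449 CPM in the first and 2479, 3507 and 3634 CPM in the second. Both genes were higher in the gamma cells with at least 3% Gcg in each mouse, as a description with no test. In mouse 2 that group was 1 cell, and in mouse 1 it was 5 cells.

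Genes of glucose sensing and insulin secretion followed the beta cell: of 31 tested, 19 were higher in beta and 3 in gamma cells, with a median log2 difference of 0.94. Besides Slc2a2, G6pc2 and Trpm5, Sytl4, the granule-docking protein granuphilin, stood at 325, 313 and 368 CPM against 8.45, 7.40 and 4.19 CPM (log2 6.13). The channel subunits of the ATP-sensitive potassium channel did not pass, at 343 against 298 CPM for Abcc8 (log2 0.18) and 36.7 against 53.4 CPM for Kcnj11 (log2 -0.41). The 3 genes higher in gamma cells were Kcnk16, a background potassium channel (245, 229.6 and 240.1 against 99.8, 98.4 and 94.2 CPM, log2 -1.31), Kcnh6, another potassium channel (log2 -1.59), and Stx1a, a membrane-fusion protein of secretion (log2 -0.98). Genes of this paragraph outside the naming rule (Abcc8, Kcnj11, Kcnh6 and Stx1a) were named after their values were seen.

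Receptors for signals within the islet also favoured beta cells, with 15 of 22 tested (of 39) higher there, 4 higher in gamma cells and a median of 1.56. Adra2a, the adrenergic receptor that curbs insulin release, stood at 91.4, 83.7 and 92.3 against 0, 0 and 1.91 CPM (log2 5.87). Ffar1, a receptor for long-chain fatty acids, stood at 116, 111 and 137 against 19.0, 14.8 and 11.4 CPM (log2 3.33). Among the incretin and glucagon receptors, named after their values were seen, Gipr stood at 57.8 against 13.2 CPM, Glp1r had 120 UMIs against 1 (ratio 27.3, 4.81 to 1088), and Gcgr had 332 UMIs against 0, at least 25.2-fold higher in beta cells with a floor of 3 UMIs over the gamma cells. All 3 receptors were thus lower in gamma cells, and Gcgr was not detectable there at this depth.

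The 4 receptors higher in gamma than in beta cells included another fatty acid receptor. Ffar4, which also responds to long-chain fatty acids, stood at 67.6, 44.4 and 73.6 CPM in gamma cells and at 2.81, 5.56 and 4.01 CPM in beta cells (log2 -3.99), with 53.3 CPM in alpha and 88.8 CPM in delta cells. Gpr119, a lipid receptor, stood at 25.1 against 2.79 CPM (log2 -3.67) and Gabbr1, a GABA-B receptor subunit, at 56.3 against 36.5 CPM (log2 -0.63). Avpr1b, a vasopressin receptor, had 49 UMIs in gamma cells and 0 in beta cells, at least 71.7-fold higher, with 37.4 CPM in alpha cells. Chrm3, the muscarinic receptor that raises insulin release, did not pass between the cell types, at 35.6, 30.6 and 45.3 CPM in beta and 25.3, 22.2 and 47.3 CPM in gamma cells (log2 0.09 ± 0.21 SE). Gamma cells exceeded alpha cells (1.11 CPM) and delta cells (2.54 CPM) in Chrm3, by log2 4.73 and 4.19. Gpr119, Gabbr1, Avpr1b and Chrm3 were named after their values were seen.

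Granule and prohormone genes split evenly, with 7 of 24 tested higher in each direction, against 15.3% and 14.8% of all genes, and a median of -0.05. Pcsk1, the convertase that cuts proinsulin, stood at 511, 634 and 325 CPM in beta cells and at 31.7, 0 and 14.1 CPM in gamma cells (log2 4.51). Bace2, a protease of the beta-cell surface, stood at 338, 366 and 413 against 12.7, 7.40 and 15.6 CPM (log2 4.76). Slc30a8 stood at 864, 852 and 901 against 217, 59.2 and 144 CPM (log2 2.52), and with stricter hormone thresholds it no longer passed (log2 3.02, edgeR adjusted p = 0.13). Pcsk2, the convertase that cuts proglucagon, stood at 2836, 2528 and 2327 in beta and at 5146, 3288 and 3876 CPM in gamma cells (log2 -0.67). The beta cell thus had more of one convertase and the gamma cell more of the other. Chga, chromogranin A, was higher in beta cells (9335 against 4165 CPM). Pam, which amidates peptides such as PP and PYY, and Resp18, a granule protein, were higher in gamma cells (995 against 377 CPM and 5294 against 2615 CPM). Pcsk2, Chga, Pam and Resp18 were named after their values were seen.

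Gamma cells carried many alpha-cell genes that were low in beta cells. Of 20 alpha-cell genes tested, 15 were higher in gamma and 2 in beta cells, with a median of -3.49. Gc, the vitamin D-binding protein, stood at 872, 518 and 631 CPM against 31.9, 26.9 and 29.1 CPM and exceeded the alpha level of 331 CPM. Ttr stood at 4689, 5050.1 and 7779 against 1702, 1454 and 1949 CPM, far below the 43778 CPM of alpha cells. Basp1, a membrane protein of growing axons, stood at 165, 88.9 and 184 against 3.28, 3.95 and 4.78 CPM. Slc7a2, an arginine transporter (log2 1.17), and Fam46a (1.32) were the 2 higher in beta cells. With gamma cells limited to Gcg below 3%, the log2 difference was -4.61 for Gc, -4.85 for Basp1, 1.69 for Slc7a2 and 1.43 for Fam46a. Summed over the list without TMM, alpha genes made up 2723 to 3841 CPM of beta cells, 6605 to 9883 CPM of gamma cells and 41391 to 49594 CPM of alpha cells. These sums include the gamma cells with at least 3% Gcg.

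Of 9 tested of 15 delta-cell genes, 5 were higher in gamma cells and 0 in beta cells (median -1.43), among them Tspan12, a tetraspanin (35.9, 74.0 and 43.5 against 1.87, 3.81 and 1.15 CPM). Rbp4, a retinol carrier abundant in delta cells, stood at 1607, 1451 and 1554 against 209.9, 309 and 81.4 CPM and missed the threshold (log2 -3.18, edgeR adjusted p = 0.11). Of 12 tested of 19 gamma-cell genes, 7 were higher in gamma cells and 1 in beta cells (median -2.22), or 4 without mouse 3. Folr1, a folate receptor, stood at 933, 829 and 977 against 24.8, 23.3 and 26.8 CPM, above alpha (72.0 CPM) and delta cells (199 CPM). Fxyd3, a regulator of the sodium pump, stood at 179, 96.3 and 89.6 against 10.3, 2.64 and 7.45 CPM. Fgb, a fibrinogen chain, had 42 UMIs in gamma and 0 in beta cells, at least 61.5-fold higher. Spock1, a proteoglycan on the same list, was higher in beta cells, at 75.9, 77.0 and 109 against 6.33, 7.40 and 7.62 CPM. Rbp4, Fgb and Spock1 were named after their values were seen.

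Protein folding genes were higher in beta cells for 17 of 30 members and higher in gamma cells for 1, with a median of 0.36. Ero1lb, the oxidase that helps form disulfide bonds of proinsulin, stood at 1505, 1560.1 and 1536 CPM against 57.0, 51.8 and 62.5 CPM (log2 4.68). The chaperone genes Sdf2l1 (366 against 109 CPM) and Hyou1 (225 against 94.8 CPM) differed less. The single member higher in gamma cells was Atf3, a stress-induced factor, at 1045, 1681 and 1494 against 52.0, 59.6 and 123 CPM (log2 -4.19). Atf3 is also induced by tissue dissociation. Of 20 genes known to respond to dissociation, 12 were higher in gamma and 3 in beta cells (median -0.33), but 6 were higher in gamma cells with DESeq2 and 6 without mouse 1. Klf4 stood at 208 against 26.9 CPM, Klf2 at 394 against 70.8 CPM and Fos at 3891 against 1684 CPM, while alpha cells had 434, 187 and 3971 CPM. Whether the response to dissociation has a part in these values was not tested.

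Energy genes showed exchanges of single members more than shifts of the lists. Of 23 glycolysis genes 4 were higher in each direction (median -0.06), a share near the 15.3% and 14.8% of all genes. Of 27 oxidative phosphorylation genes 7 were higher in beta and 4 in gamma cells (median 0.17). Pdk4, the kinase that shuts pyruvate dehydrogenase, stood at 19.0, 22.2 and 33.5 CPM in gamma cells and at 0.469, 0.439 and 0.382 CPM in beta cells. Hk1, a high-affinity hexokinase that beta cells are known to lack, stood at 23.2, 14.8 and 15.6 against 0.469, 0 and 0.765 CPM. Both genes were near the detection limit in beta cells. Higd1a, a hypoxia-induced mitochondrial protein, stood at 46.2 in gamma against 2.52 CPM in beta cells, with 335 CPM in alpha cells. Both Pdk4 and Higd1a differed among gamma cells, without TMM scaling. Pdk4 stood at 40.3, 86.0 and 79.7 CPM in those with at least 3% Gcg and at 9.27, 8.06 and 12.4 CPM in the others, and with the others alone its log2 difference went from -5.86 to -4.72. Higd1a stood at 113, 301 and 140.1 CPM in the first and at 4.63, 0 and 14.3 CPM in the second, and with the second alone it was not tested. For both genes the first group was 1 cell in mouse 2. Cox6a2, a cytochrome oxidase isoform of muscle, had 149 UMIs against 0, at least 11.3-fold higher in beta cells.

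Genes disallowed in beta cells, which are kept silent there, were tested for 3 of 19 members, and all 3 were higher in gamma cells (median -3.02). These were Hk1, Oat, an aminotransferase of mitochondria (35.5 against 5.46 CPM), and Lmo4, a LIM-domain factor (15 against 3.83 CPM). A gene seen in 1 cell type only could pass the expression filter through that side alone, so counts over tested members do not speak for whole lists. Of 23 antioxidant genes 6 were higher in beta and 5 in gamma cells (median -0.11), against 15.3% and 14.8% of all genes. Gpx3, a secreted glutathione peroxidase, stood at 2466, 1133 and 2436 against 136, 69.8 and 103 CPM, and Prdx4, a peroxiredoxin of the endoplasmic reticulum, at 346 against 56.6 CPM, both higher in gamma cells. Mt3, a metallothionein, was higher in beta cells (34.9 against 3.68 CPM).

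Markers of immature cells pointed in both directions. The counts of this paragraph stand against 15.3% of all genes higher in beta and 14.8% higher in gamma cells. Of 6 tested of 12 immature beta-cell genes, 2 were higher in beta cells (Npy and Lifr, a cytokine receptor, 90.2 against 7.37 CPM) and 3 in gamma cells (median -2.38). The latter included Cd81, a tetraspanin, at 621, 489 and 544 against 53.0, 42.6 and 71.5 CPM, and Serpina7, a thyroxine carrier, at 89.4 against 3.81 CPM. Of 13 tested endocrine progenitor genes, 4 were higher in beta and 3 in gamma cells (median -0.16), with Sox4 (113 against 32.2 CPM) and Btbd17 (70.5 against 7.71 CPM) in the first and Fev in the second. Of 10 tested cell cycle genes, 4 were higher in beta and 3 in gamma cells (median -0.30). Mki67, a marker of dividing cells, had 166 UMIs in beta and 3 in gamma cells (ratio 12.6, 4.24 to 61.7). Its call ended in the fit of all 4 cell types (log2 3.96, edgeR adjusted p = 0.077), as did those of Cenpf and Ube2c, also higher in beta cells. Ccnd2, the cyclin D of adult islets, stood at 1069 against 519 CPM.

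Gad1, which makes GABA, stood at 72.6, 57.2 and 61.7 CPM in beta cells and at 2.11, 0 and 1.14 CPM in gamma cells (log2 5.62, from 4 UMIs in gamma cells). With gamma cells limited to Gcg below 3%, which held 1 of those UMIs, the log2 difference was 7.05. Gria2, an AMPA receptor subunit, was higher in gamma cells, at 258, 281 and 228 against 22.0, 38.5 and 36.3 CPM. Of 10 tested members of that list 3 were higher in beta and 6 in gamma cells (median -0.78). Of 13 amino acid transport genes 2 were higher in each direction (median 0.17), a share near the 15.3% and 14.8% of all genes. Slc38a5, a glutamine transporter of alpha cells, stood at 61.2, 7.40 and 80.0 against 11.2, 9.66 and 7.45 CPM, and the gamma cells of mouse 2, with 1 UMI, did not lie above the beta cells. In the gamma cells with at least 3% Gcg, 1 cell in mouse 2, Slc38a5 stood at 161, 0 and 224 CPM without TMM scaling. In the others it stood at 20.9, 8.06 and 17.2 CPM, and with the others alone its log2 difference went from -2.82 to -1.20. Of 21 adhesion genes 8 were higher in beta and 10 in gamma cells (median -0.34). Gjd2, the connexin 36 that couples beta cells, stood at 136, 124 and 138 against 10.6, 22.2 and 22.1 CPM, and Robo1, a guidance receptor, at 28.2 against 0.762 CPM. Epcam, an epithelial adhesion protein, was higher in gamma cells (639 against 253 CPM).

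Markers of other cells were mostly alike in both sums, with exceptions given here by their summed CPM without TMM over the 3 mice. Acinar markers spanned 1451 to 21606 CPM in beta and 1466 to 19689 CPM in gamma cells, highest in mouse 2 on both sides, and 1 of 18 tested was called, Amy2a5. Duct markers spanned 738 to 942 CPM in beta and 1670 to 2165 CPM in gamma cells, and 5 of 9 tested were higher in gamma cells, led by Clu, the chaperone clusterin (510.3 against 91.5 CPM), and the keratins Krt18 and Krt8 (462 against 196 and 448 against 185 CPM), with 1 higher in beta cells. Alpha cells held 303 CPM Krt18 and delta cells 864 CPM Clu. Macrophage markers spanned 49.6 to 117 and 50.4 to 109 CPM (1 of 2 tested higher in gamma cells, C1qa) and endothelial markers 18.6 to 48.9 and 13.6 to 47.7 CPM (1 of 2, Egfl7). Pericyte and fibroblast markers spanned 3.01 to 48.4 and 13.6 to 30.6 CPM, with Pdgfra, Dcn, Lum, Pdgfrb and Acta2 at 0 in gamma cells, and the 1 gene tested, Col1a2, higher in gamma cells. Schwann markers spanned 17.1 to 28.1 and 27.2 to 34.2 CPM, with Gfap at 0 in both, and 1 of 2 tested was higher in gamma cells. The part of these cells in the other differences was not tested.

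Antigen presentation genes differed for few members. Of 18 interferon and class I genes 0 were higher in beta and 3 in gamma cells (median -0.09), against 15.3% and 14.8% of all genes. The gamma count is thus near the share of all genes. The 3 were Ifi27 (165 against 80.7 CPM), Bst2 (33.3 against 9.02 CPM) and H2-D1 (359 against 261 CPM). H2-D1 did not pass with DESeq2 or without mouse 3. Of 4 tested class II genes 3 were called higher in beta cells (median 0.75), but their values came mainly from mouse 3. Cd74, the invariant chain, stood at 6.09, 22.0 and 145 CPM in beta and at 0, 0 and 96.4 CPM in gamma cells, so the groups overlapped. With high doublet scores removed, Cd74 and H2-Ab1 turned to log2 differences of -0.24 and -0.03, and neither they nor H2-Aa passed, as none did with DESeq2. With gamma cells limited to Gcg below 3%, Cd74, H2-Aa and H2-Ab1 did not pass either (log2 0.24, 0.59 and 0.36). Class II markers summed to 12.1 to 389 CPM in beta and 0 to 189 CPM in gamma cells.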

How the data were processed

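The labels describe islets freed with collagenase, purified on a gradient, dissociated to single cells and sequenced with a 10x Genomics 3′ protocol. Cell Ranger 2.2 and mm10 are named in the submitters' processing notes, and the matrix headers name software 3.1.0. The deposited matrices hold counts, as whole UMIs per gene and barcode, and were used as deposited. Of 31053 gene IDs, 30934 were found in GENCODE M21 (GRCm38), which gave positions, and 71 share a symbol with another.

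UMIs were summed per mouse and cell type, and Ins1, Ins2, Gcg, Sst and Ppy were left out. The 6 sums were tested with edgeR 4.0.16 in R 4.3.3 (filterByExpr, TMM factors, robust quasi-likelihood fit, the mouse as a block, Benjamini-Hochberg over all genes). Alpha and delta levels come from 1 fit of 12 sums. Standard errors are the log2 difference divided by the square root of F. Ratios with 1 to 3 UMIs on the lower side have exact counting intervals. In simulated data for this comparison (10226 genes), 75% of genes changed by log2 1 and 100% of those changed by log2 2 were recovered. The changed genes were drawn only from genes above a minimum level, and no difference between mice was simulated. Recovery of genes with few UMIs was thus not gauged.

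The number of a library marks its mouse, so sums pair by mouse. Over 5827 genes, deviations of beta and gamma sums from their means had correlations of 0.108, 0.273 and 0.448 within mice 1, 2 and 3, against -0.368 to 0.0631 between mice.

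The members and the 29 gene lists (530 genes, 385 tested) were chosen with earlier results of these data known. In each direction the 12 largest differences are named among genes that passed, moved the same way in all 3 mice, differed by at least 1 on the log2 scale, reached 50 CPM in the higher cell type and carry no numbered gene-model symbol. For each list up to 4 members with the smallest p and at least 10 CPM may be named, and all tested peptide and transcription factor genes. The genes that met the first rule were 283 and 201. A few genes that these rules pick, 2 of the 12 leading gamma genes among them, are not reported here.

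Doublets were scored with Scrublet in scanpy 1.11.5 and left in, and an alternative removed 55, 96 and 166 cells, of which 50 beta and 11 gamma cells. Further tools were DESeq2 1.42.0, limma 3.58.1, pandas 2.3.3, numpy 2.4.6, scipy 1.17.1 and matplotlib 3.10.9, run under Python 3.11.15.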

Additional observations from a re-analysis of the deposited data

How the results depend on the processing

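The 22 leading genes reported here all kept their direction and passed in each of the 16 alternatives in which they were tested. With cells thinned to 1000 UMIs, counted without the hormone genes, only 16 of the 22 were tested. They were chosen from the same sums for large differences in all 3 mice, so this is a description and not an independent check. Fold sizes of genes with few gamma UMIs moved, as for Slc2a2 (log2 7.95) to 14.45 with free RNA subtracted. Counts of genes higher in beta and in gamma cells were 1606 and 1554. They fell to 794 and 743 with DESeq2 and, with cells thinned to 1000 UMIs, to 154 and 90 of 2199 genes tested, of which 63.1% were higher in beta cells against 50.8% before. Leaving out each mouse in turn gave 716 to 1628 and 604 to 1717, lowest without mouse 3, which holds most gamma cells. Other filters, factors, free RNA subtraction and stricter thresholds kept both counts within 1.5 times, and the median of all genes moved by over 0.1 only without a filter (0.115).

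Without the replicate block the counts were 1415 and 1354. The pairing by mouse changed the call of 11 genes named from the lists and of no leading gene.

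Of the 12 leading beta genes, the 0 lower in gamma than in alpha cells became 1 with at most 10% mitochondrial UMIs, 1 without a filter and 1 with stricter thresholds, and 0 to 2 with a mouse left out. The 3 lower than in delta cells ranged from 1 to 5 with a mouse left out, 1 without mouse 3 and 5 without mouse 1.

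Directions turned for Amy2a5 (log2 0.61 without the replicate block), Cd74 (-0.24) and H2-Ab1 (-0.030) with doublet scores removed, and H2-D1 (0.15 thinned). The cause was not tested. Setting Pyy and Iapp aside was chosen after seeing the data and gave 1603 and 1569. In the 9 gamma cells of mouse 2, 1 UMI of a gene such as Npy equals 7.40 CPM, so lower levels cannot be resolved there.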
